A study of Mus musculus with 8 samples.

Results

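The oligodendrocyte lineage was followed through 8 genes, chosen by symbol: Olig1, Olig2, Sox10, Pdgfra, Cspg4, Gpr17, Cnp and Mbp. All 8 had a row among the 23284 gene symbols counted, and all 8 were among the 14696 genes with enough reads to be tested. Poly(A) RNA had been sequenced from dorsal cortex of C57BL/6 mouse embryos at E15.5 in 8 libraries, 4 labelled WT (ErbB4+/+) and 4 labelled ErbB4 KO (ErbB4-/-), to find genes whose expression depends on the receptor tyrosine kinase ErbB4. According to the study's methods each genotype was bred as its own homozygous line, and the meninges and ganglionic eminences were cut away before RNA extraction. The study says of ErbB4 knockouts in general that they are kept alive by ErbB4 expressed in the heart from the α-MHC promoter. The sources used here do not say whether libraries of one genotype came from separate litters, so the p-values measure only the spread between these libraries.

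Oligodendrocytes make the myelin sheaths of the central nervous system. Their precursors are specified by the basic helix-loop-helix factors Olig1 and Olig2, first in ventral progenitor zones such as the ganglionic eminences and later in the cortex itself, and they carry the PDGF receptor Pdgfra and the proteoglycan NG2. Sox10 then drives the program of the committed lineage, Gpr17 marks cells on the way to differentiation, and Cnp and Mbp belong to myelin. In the mouse cortex myelin forms after birth, so an embryonic cortex is a tissue with few cells of this lineage. Several of these genes are also made elsewhere. Olig2 is made by ventral neural progenitors, Pdgfra by meningeal fibroblasts, Cspg4 by pericytes, Sox10 by neural crest derivatives, and transcripts from the Mbp locus by neurons.

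Library depth ranged from 28205703 to 38346416 counts in WT and from 31574536 to 48871480 in the libraries labelled KO. The labels could not be checked on Erbb4, whose level was 8.99, 19.9, 25.3 and 19.2 CPM (counts scaled to library depth after TMM normalization) in WT1 to WT4 and 20.9, 24.6, 20.7 and 23.5 CPM in the libraries labelled KO1 to KO4. The gene-level counts do not separate the targeted part of Erbb4 from the rest of its transcript, and the groups are therefore named by their labels. WT1 stood apart on the first principal component, at 38.9 against -15.5 to 6.07 in the other libraries. On it the libraries labelled KO lay at -15.5 to -4.69 and WT2, WT3 and WT4 at -3.91 to 6.07. Xist was at 983 to 1690 CPM in WT1, WT2 and WT3 and at 2.70 to 3.82 CPM in WT4 and the libraries labelled KO, while the Y-linked Ddx3y was at 0.257 to 0.495 CPM in the former and 76.4 to 80.9 CPM in the latter, so the genotype comparison is in part one between these sets of libraries.

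None of the 8 genes differed between genotypes after Benjamini-Hochberg adjustment over all genes tested (edgeR quasi-likelihood test, adjusted p from 0.81 to 0.985), where 4 of 14696 genes, or 0.0272%, passed the threshold of 0.05. Before adjustment, 3 of the 8 had a p under 0.05, Sox10, Gpr17 and Pdgfra, and all 3 were higher in the libraries labelled KO. The background for that count was 812 of 14696 genes, or 5.53%, in either direction, and 441, or 3.00%, higher in the libraries labelled KO. With DESeq2 and with limma-voom the unadjusted count was also 3, and without WT1, WT4, KO1, KO2 or KO3 it was 2. All 8 fitted log2 fold changes were above 0, with a median of 0.145, beside a median of -0.00217 and 49.2% above 0 over all tested genes. Without KO1 the median was 0.0881, and Olig2, Mbp and Cnp each fell below 0 without some single library. In a bulk sample a change in the number of cells of a type and a change in RNA per cell cannot be told apart.

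**Figure D1:**
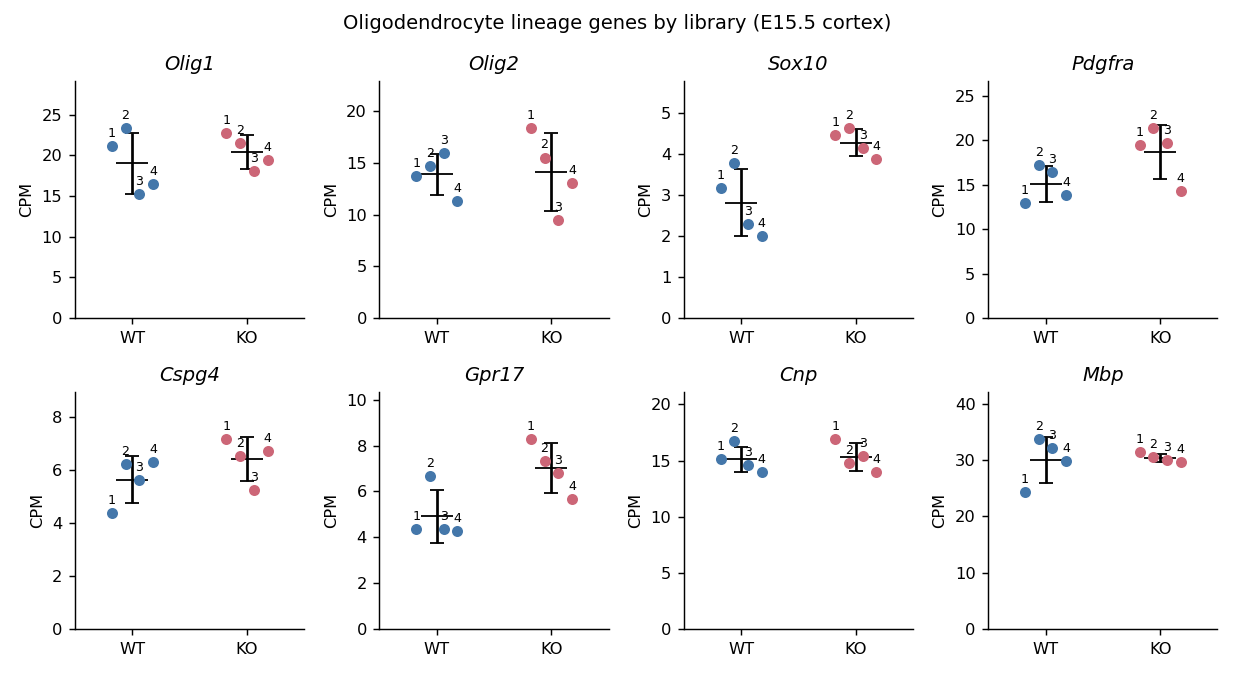
Level of each of the 8 genes in CPM (vertical axes, from 0) in the 4 WT libraries and the 4 libraries labelled KO. Points are libraries with their replicate numbers, and bars give the mean ± SD (n = 4). Sox10 is the gene whose genotypes do not overlap, and the other 7 genes overlap.

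Per kilobase of merged exons, Olig1 and Olig2 stood highest of the 8. Olig1 had 9.09 ± 1.34 RPKM (reads scaled to exon length and library depth, SD over n = 8 libraries of both genotypes) and Olig2 5.73 ± 1.14 RPKM. Cnp at 4.18 ± 0.301 RPKM and Mbp at 3.60 ± 0.322 RPKM came next, followed by Pdgfra at 2.50 ± 0.454 RPKM. Sox10 at 1.31 ± 0.358 RPKM, Gpr17 at 1.15 ± 0.296 RPKM and Cspg4 at 0.749 ± 0.111 RPKM closed the order. The ranges over libraries of neighbours in this order overlapped, except that the lowest Pdgfra value, 1.92 RPKM, lay above the highest Sox10 value, 1.70 RPKM. Of 14253 tested genes with a known length, 54.6% lay below Olig1, 20.4% below Sox10 and 15.2% below Cspg4. The place of Mbp depends on the length used: with its longest transcript in place of merged exons its level was 6.30 RPKM, and that of Cnp 5.24 RPKM.

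Sox10, the SRY-box factor that drives the committed oligodendrocyte and also neural crest derivatives, showed the clearest separation. Its gene lies on the minus strand of chr15:78985343-78994920 (mm9). It was read 89, 118, 88 and 70 times in WT1 to WT4 and 219, 161, 162 and 122 times in the libraries labelled KO1 to KO4. These reads correspond to 3.17, 3.79, 2.29 and 1.99 CPM in WT and 4.45, 4.62, 4.15 and 3.88 CPM in the libraries labelled KO. Every library labelled KO lay above every WT library, the closest being KO4 at 3.88 CPM and WT2 at 3.79 CPM. Such a separation held for 273 of all tested genes, or 1.86%. The means were 2.81 ± 0.82 CPM and 4.27 ± 0.33 CPM (SD, n = 4 each), a log2 fold change of 0.61 (SE 0.192, 95% interval 0.194 to 1.03, 1.53-fold, unadjusted p = 0.00794, adjusted p = 0.81, edgeR). The exact two-sided permutation test gave p = 0.0286, the smallest that 8 libraries in groups of 4 allow.

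Gpr17, a G protein-coupled receptor of precursors about to differentiate, followed the same order of genotypes with some overlap. It was at 4.35, 6.67, 4.35 and 4.27 CPM in WT1 to WT4 and at 8.28, 7.32, 6.79 and 5.65 CPM in the libraries labelled KO1 to KO4. A single pair crossed: WT2 lay above KO4, while the other 3 WT libraries lay between 4.27 and 4.35 CPM and below all 4 libraries labelled KO. The log2 fold change was 0.52 (SE 0.17, 95% interval 0.147 to 0.891, unadjusted p = 0.0104, adjusted p = 0.81, edgeR; exact permutation p = 0.0571). The gene lies on the minus strand of chr18:32102651-32109290 (mm9), and 188 bases of its exons overlap those of Lims2 on the other strand. The libraries were not strand-specific, so reads in that stretch cannot be assigned by strand. Lims2 itself was at 0.889 CPM in WT and 0.945 CPM in the libraries labelled KO.

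Sox10 and Gpr17 ordered the libraries alike. WT1, WT3 and WT4 held the 3 lowest levels of both genes, WT2 lay among or next to the libraries labelled KO for both, and KO4 was the lowest of the libraries labelled KO for both. Since WT1, WT3 and WT4 formed a cluster of their own for Gpr17, no test of the relation over all 8 libraries is given. As a description, theirs was the highest r of the 28 pairs of the 8 genes over all libraries, the difference between genotypes included. With each genotype centred on its own mean it was 0.728, below that of Olig1 with Sox10 (0.889) and of Gpr17 with Cnp (0.888).

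Pdgfra, the receptor through which PDGF keeps precursors dividing, is on the plus strand of chr5:75548316-75594229 (mm9). It was at 12.9, 17.2, 16.4 and 13.8 CPM in WT1 to WT4 and at 19.4, 21.3, 19.7 and 14.3 CPM in the libraries labelled KO1 to KO4. KO1, KO2 and KO3 lay above all WT libraries, and KO4 lay within the WT range. The means were 15.1 ± 2.04 and 18.7 ± 3.04 CPM (SD, n = 4 each), a log2 fold change of 0.31 (SE 0.131, 95% interval 0.0189 to 0.593, unadjusted p = 0.0386, adjusted p = 0.81, edgeR; exact permutation p = 0.143). The unadjusted p of Pdgfra was above 0.05 without WT1 (0.0883), WT4 (0.0969), KO1 (0.0804), KO2 (0.118) or KO3 (0.0867), with Y-linked expression as a covariate (0.0763) and in the libraries with Y-linked expression alone (0.0579). In both fits on Y-linked expression the genotypes are set apart by WT4 as the only WT library, so their p-values are no check of stability. With any 1 library left out, the unadjusted p of Sox10 and that of Gpr17 stayed under 0.05.

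Cspg4, which encodes the NG2 proteoglycan of precursors and pericytes, was the lowest of the 8 per kilobase. It was at 4.39, 6.22, 5.63 and 6.32 CPM in WT1 to WT4 and at 7.17, 6.52, 5.25 and 6.73 CPM in the libraries labelled KO1 to KO4. The genotypes overlapped, since KO3 lay below 3 of the WT libraries. The log2 fold change of 0.18 had a 95% interval from -0.129 to 0.496 (edgeR unadjusted p = 0.224). It was 0.08 without WT1 and 0.02 with Y-linked expression as a covariate. The gene lies at chr9:56712911-56747677 on the plus strand (mm9).

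Olig1 and Olig2, the factors that specify the lineage, are 41.1 kb apart on the plus strand of chromosome 16, at chr16:91270014-91272184 and chr16:91225795-91228922 (mm9). Olig1 was at 21.1, 23.3, 15.2 and 16.5 CPM in WT1 to WT4 and at 22.7, 21.5, 18.1 and 19.4 CPM in the libraries labelled KO1 to KO4. Olig2 was read 385, 457, 610 and 395 times in WT1 to WT4 and 901, 540, 369 and 409 times in the libraries labelled KO1 to KO4, which scales to 11.3 to 15.9 CPM in WT and 9.45 to 18.3 CPM in the libraries labelled KO. In both genes the genotypes overlapped widely, and for Olig2 the highest and the lowest of all 8 libraries, KO1 and KO3, were both labelled KO. The log2 fold change was 0.11 for Olig1 (95% interval -0.182 to 0.396) and 0.02 for Olig2 (-0.368 to 0.409). That of Olig1 was 0.01 without WT3 and 0.31 with Y-linked expression as a covariate.

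Whether the neighbours Olig1 and Olig2 moved together across libraries depended on WT3. Pearson's r of their log2 CPM was 0.408 over n = 8 (exact permutation p = 0.316, Benjamini-Hochberg adjusted p = 0.509 over 4 relations; Spearman's rho 0.381, exact permutation p = 0.36). WT3 was the lowest library for Olig1 and the second highest for Olig2. Without WT3 r was 0.825 (adjusted p = 0.0405), and without both WT3 and WT4, the libraries farthest from the median of Olig1, it was 0.874 (exact permutation p = 0.0181). Within the libraries labelled KO r was 0.981 and within WT 0.102, from 4 libraries each. The low r over all libraries thus rests on WT3.

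Olig2 also moved with genes of the ganglionic eminences, the ventral tissue that had been dissected away. Whether it did so more closely than with Olig1 was not tested. The gene most alike to Olig2 over the 8 libraries was Dlx1, a homeobox factor of ventral progenitors and interneurons (r = 0.966 among 13280 genes at 1 CPM or more), followed by Ankrd23 (0.92) and the SoxB1 factor Sox1 (0.917). With the mean log2 CPM of a list of 14 ventral and interneuron genes, r was 0.914 (exact permutation p = 0.00122, adjusted p = 0.00486 over 4 relations) and Spearman's rho 0.905 (exact permutation p = 0.00456, adjusted 0.0183). It was 0.912 within WT and 0.959 within the libraries labelled KO. Without KO1 and KO3, the ends of the list's range, r was 0.798 (exact permutation p = 0.0569), so the call rests on those libraries. The summed level of the list was 567 to 773 CPM in WT and 557 to 784 CPM in the libraries labelled KO. Single genes of the list differed in level. Dlx1 was at 76.9 to 119 CPM and Nkx2-1 of the medial eminence at 7.63 to 27.0 CPM. Gsx2 was at 4.56 to 8.10 CPM and Gsx1 at 0.627 to 1.71 CPM. Since Dlx1 is also a gene of interneurons, its level does not separate eminence tissue from those cells. The part of either in the level of Olig2 was not tested.

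**Figure D2:**
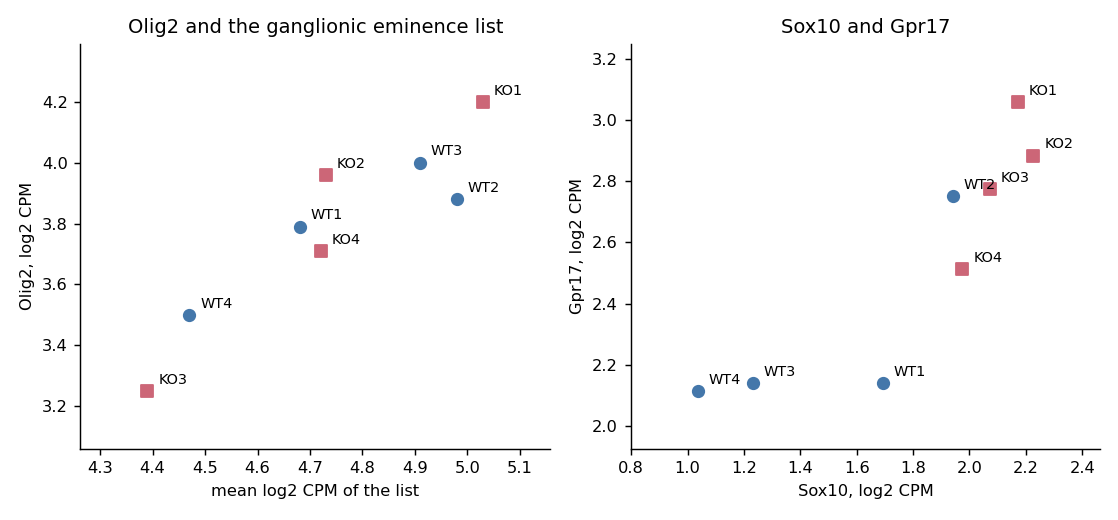
Left, Olig2 against the mean of 14 ganglionic eminence and interneuron genes (both axes log2 CPM, prior count 2). Right, Gpr17 against Sox10 (both axes log2 CPM). Each point is a library, circles WT and squares labelled KO. Olig2 increases with the list from KO3 at the lower left to KO1 at the upper right, and WT1, WT3 and WT4 lie apart from the other libraries for Gpr17.

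The promoters of Olig2 and of Dlx1, the gene that moved with it, and of the precursor receptor Pdgfra are shown as RefSeq gives them for GRCm38.p6, a later build than the mm9 of the counts, from 250 bases before to 50 bases after the start site. They span chr16:91225300-91225599, chr2:71529195-71529494 and chr5:75152001-75152300, all on the plus strand. Of the 8 lineage genes, 4 were matched in that table. Capitals mark E-boxes (CANNTG, which reads alike on both strands), the class of site bound by basic helix-loop-helix factors such as Olig2. These letters occur in 72.3% of the 32851 promoters of this length.
Olig2: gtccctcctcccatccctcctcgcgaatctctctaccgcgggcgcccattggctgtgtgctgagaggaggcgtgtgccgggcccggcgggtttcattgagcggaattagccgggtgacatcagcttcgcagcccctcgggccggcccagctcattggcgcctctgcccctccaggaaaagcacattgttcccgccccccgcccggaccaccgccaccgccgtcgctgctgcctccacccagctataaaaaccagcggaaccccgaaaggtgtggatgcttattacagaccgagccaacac
Dlx1: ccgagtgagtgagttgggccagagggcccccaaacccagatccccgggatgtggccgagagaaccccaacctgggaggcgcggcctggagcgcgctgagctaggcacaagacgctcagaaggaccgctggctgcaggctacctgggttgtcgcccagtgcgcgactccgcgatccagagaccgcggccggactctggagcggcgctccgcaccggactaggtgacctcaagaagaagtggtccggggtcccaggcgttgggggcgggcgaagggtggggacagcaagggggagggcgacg
Pdgfra: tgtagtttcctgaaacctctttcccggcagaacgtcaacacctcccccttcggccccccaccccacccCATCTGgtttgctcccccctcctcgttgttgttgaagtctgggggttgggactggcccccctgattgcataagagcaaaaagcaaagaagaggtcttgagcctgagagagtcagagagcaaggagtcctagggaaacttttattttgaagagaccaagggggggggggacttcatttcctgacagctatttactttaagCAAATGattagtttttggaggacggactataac
The Pdgfra window holds 2 such matches, 1 on each side of the start site, and the Olig2 and Dlx1 windows hold none of these letters.

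Olig1 was most alike to Tppp3 (r = 0.954), the translation elongation factor Eef1a2 (0.948) and Pglyrp1 (0.941), and 28 genes had an r over 0.9 with it. Pdgfra was most alike to the peptidase Nln (0.985), Mctp1 (0.974) and the glycosyltransferase Mgat3 (0.972), with 90 genes over 0.9, against 11 for Olig2. With 8 libraries and 13280 genes, these figures describe the order of the libraries only.

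Among the genes around the Olig pair, several on the side of Olig1 were lower in the libraries labelled KO while Olig1 and Olig2 were not. Within 1 Mb, 25 genes were tested, 7 had an unadjusted p under 0.05 and 0 passed after adjustment (edgeR), beside 5.53% of all tested genes at an unadjusted p under 0.05 in either direction. Of these 7, the 4 in a list of 15 neighbours were lower, and the others are not described here. Dnajc28, 342 kb from Olig1, was at 9.13 to 14.1 CPM in WT1 to WT3, 4.19 CPM in WT4 and 3.49 to 4.03 CPM in the libraries labelled KO (log2 fold change -1.39, SE 0.288, adjusted p = 0.533). Tmem50b, at 303 kb, was at 71.2 to 90.9 CPM in WT1 to WT3, 39.0 CPM in WT4 and 35.3 to 38.9 CPM in the libraries labelled KO (-0.93, SE 0.198, adjusted p = 0.533). For both, and for the interferon-γ receptor subunit Ifngr2 at 275 kb (90.4 to 104 CPM in WT1 to WT3, 55.1 CPM in WT4, 59.3 to 66.8 CPM in the libraries labelled KO), WT4 lay with the libraries labelled KO. This is the division that Xist and Ddx3y also showed. With Y-linked expression as a covariate, which leaves WT4 as the only WT library to compare, the log2 fold changes of Dnajc28, Tmem50b and Ifngr2 were -0.15, -0.07 and 0.19. DESeq2 without the covariate gave adjusted p = 0.000924 for Dnajc28 and 0.123 for Tmem50b, and limma-voom gave 0.809 and 0.68. Without WT4 all 3 passed in edgeR (adjusted p = 0.00116 for Dnajc28, 0.000143 for Tmem50b and 0.00542 for Ifngr2).

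Other neighbours were read on the same side. Ifnar2, an interferon receptor subunit 101 kb from Olig1, had a log2 fold change of -0.11, and Il10rb, a cytokine receptor subunit at 134 kb whose exons share 569 bases with those of Ifnar2, had -0.41 (unadjusted p = 0.112, and -0.253 without WT3). Atp5o, an ATP synthase subunit at 412 kb, had -0.30 (unadjusted p = 0.00747, and -0.19 without WT1), and its exons share 287 bases with those of Donson. With Y-linked expression as a covariate the log2 fold change of Ifnar2 was 0.05, that of Il10rb 0.01 and that of Atp5o -0.08. Gart, Son, Donson and Cryzl1, at 349 to 417 kb, had log2 fold changes between -0.11 and 0.07. Ifnar1 at 213 kb and Itsn1 at 457 kb had -0.175 and -0.181 (edgeR unadjusted p = 0.0663 and 0.0749). Olig1 did not show the division: WT3 at 15.2 CPM and WT4 at 16.5 CPM lay below the libraries labelled KO, WT1 at 21.1 CPM among them and WT2 at 23.3 CPM above them.

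**Figure D3:**
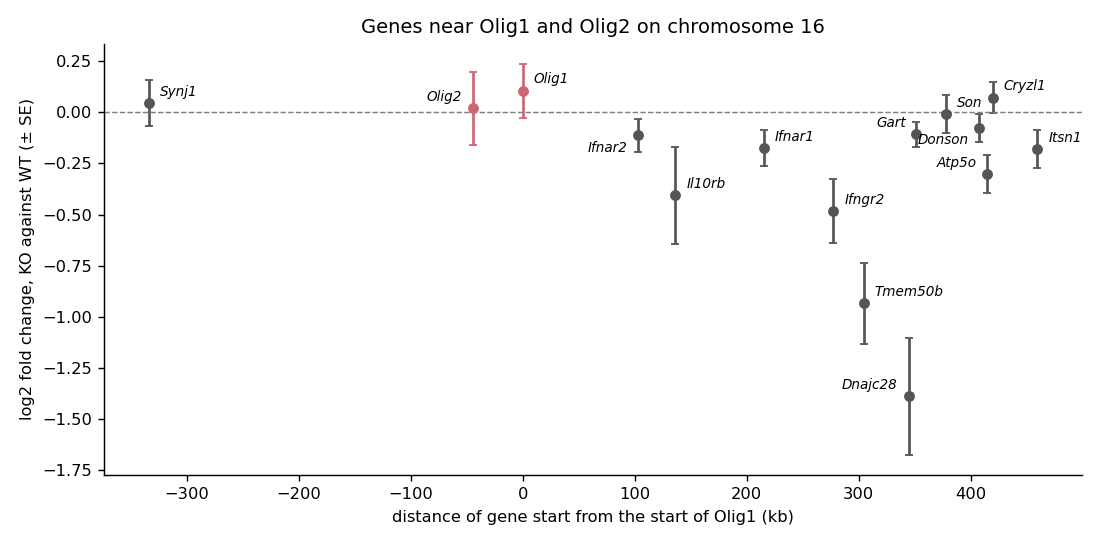
Log2 fold change (labelled KO against WT, ± SE) of measured genes around Olig1 and Olig2 by the distance of their starts from that of Olig1 in kb. Olig1 and Olig2 lie at 0.11 and 0.02, and Tmem50b (-0.93) and Dnajc28 (-1.39) lie lowest.

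The myelin genes among the 8 were level between genotypes. Cnp, a phosphodiesterase of oligodendrocyte cytoplasm and non-compact myelin, was at 15.1, 16.7, 14.6 and 14.0 CPM in WT1 to WT4 and at 16.9, 14.8, 15.4 and 14.0 CPM in the libraries labelled KO1 to KO4. Its log2 fold change was 0.02 (95% interval -0.173 to 0.213, unadjusted p = 0.826, edgeR). The gene lies on the plus strand of chr11:100436218-100453043 (mm9), and 154 bases of its exons overlap those of the more abundant Dnajc7 (291 CPM in WT) on the other strand.

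Mbp, the basic protein of compact myelin, was at 24.4, 33.7, 32.1 and 29.9 CPM in WT1 to WT4 and at 31.4, 30.5, 30.0 and 29.7 CPM in the libraries labelled KO1 to KO4. The libraries labelled KO all lay inside the WT range, and their spread was narrow (SD 0.73 CPM, against 4.05 CPM in WT, where WT1 was lowest). The log2 fold change was 0.02 (95% interval -0.185 to 0.22, unadjusted p = 0.854, edgeR). The annotation gives 16 transcripts at chr18:82644538-82755029 (mm9, plus strand), among which the golli forms, also made by neurons, share exons with the myelin forms. A count per gene does not separate them.

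Other genes of the lineage were read from 5 lists with 66 genes, of which 65 were in the files and 57 were tested. None passed after adjustment (edgeR, lowest adjusted p 0.81). Before adjustment 1 was higher in the libraries labelled KO at a p under 0.05, 1 was lower, and the median log2 fold change was 0.07. Over all tested genes 3.00% were higher and 2.52% lower at that p, so neither count stands above its background. The higher one, Ugt8a, belongs to the myelin list. In 3 genes, Ugt8a, Tnr and Pdgfrb, every library labelled KO lay above every WT library, beside 1.86% of all tested genes.

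Of the myelin genes, 7 of 11 tested were higher in the libraries labelled KO, with a median of 0.10. Ugt8a, which makes galactosylceramide, was at 4.49, 11.7, 10.9 and 10.1 CPM in WT1 to WT4 and at 13.6, 14.1, 13.2 and 14.3 CPM in the libraries labelled KO1 to KO4. WT1 was far below the rest. The log2 fold change of 0.56 (unadjusted p = 0.0239) became 0.34 (unadjusted p = 0.00144, adjusted p = 0.621) without WT1, edgeR.

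Some markers of mature oligodendrocytes, Opalin, Mobp, Aspa and Fa2h, were near the limit of detection, and others were not. Opalin had 0 reads in all 8 libraries, as did the precursor sialidase Neu4, and 3 reads would correspond to 0.0609 to 0.107 CPM depending on the library (counting error only). Mobp reached at most 0.0635 CPM and Aspa at most 0.222 CPM. Mog was at 3.99 to 6.67 CPM in WT and 5.10 to 7.70 CPM in the libraries labelled KO, and the tetraspanin Tspan2 at 13.6 to 17.0 and 16.1 to 16.8 CPM. Mal, a proteolipid of myelin membranes, was at 0.652 to 0.898 and 0.67 to 1.28 CPM (log2 fold change 0.29, unadjusted p = 0.296, edgeR, and 0.06 without KO3, its highest library). The summed level of the 15 myelin genes was 35.6 to 45.4 CPM in WT and 45.7 to 49.8 CPM in the libraries labelled KO. Without Ugt8a, whose WT1 value was far below the rest, the sums of the other 14 overlapped (29.1 to 33.7 and 32.4 to 35.6 CPM).

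Among genes of precursors, 8 of 10 tested were higher in the libraries labelled KO, with a median of 0.13. Ptprz1, a receptor phosphatase shared with radial glia, had a log2 fold change of 0.18 (unadjusted p = 0.0868), and the proteoglycan Cspg5 0.12. With single libraries left out they were as low as 0.09 (without WT1) and 0.07 (without WT3). Fabp7, the fatty acid-binding protein of radial glia and precursors, had -0.04, and 0.11 without WT1. Genes of newly formed oligodendrocytes were divided, 5 of 9 higher with a median of 0.02. In that list the extracellular matrix glycoprotein Tnr was at 9.70 CPM in WT1, 22.7 to 24.5 CPM in WT2 to WT4 and 24.7 to 26.2 CPM in the libraries labelled KO. Its log2 fold change of 0.35 was 0.13 without WT1. The sulphotransferase Ust had 0.17, the adhesion molecule Nfasc 0.07, the kinase Fyn -0.02 and Tmem2 -0.04. With single libraries left out Ust was as low as 0.10 (without KO3), and the other 3 took both signs.

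Transcription factors that act with the Olig genes or against them were also divided, 6 of 13 tested higher with a median of -0.01. The differentiation inhibitors Hes5 and Id4 were at 32.9 to 43.8 and 145 to 176 CPM in WT and at 28.3 to 39.0 and 132 to 169 CPM in the libraries labelled KO. Their log2 fold changes were -0.23 (unadjusted p = 0.0578) and -0.22 (unadjusted p = 0.0277), and that of Id2 was 0.12 (0.06 without KO3 and 0.22 without WT1). Of the signals, 7 of 14 were higher with a median of 0.03. Pdgfrb, the PDGF receptor of pericytes, was at 17.9 to 19.7 CPM in WT and 19.8 to 24.2 CPM in the libraries labelled KO (0.18, unadjusted p = 0.0559, and 0.11 without KO2). The hedgehog transducer Smo had -0.04, the FGF receptors Fgfr2 and Fgfr3 had 0.00 and -0.23 (for Fgfr3 unadjusted p = 0.084, and -0.115 without WT4), and the ligand Pdgfa had 0.21 (unadjusted p = 0.151), the last named after its values were seen.

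**Figure D4:**
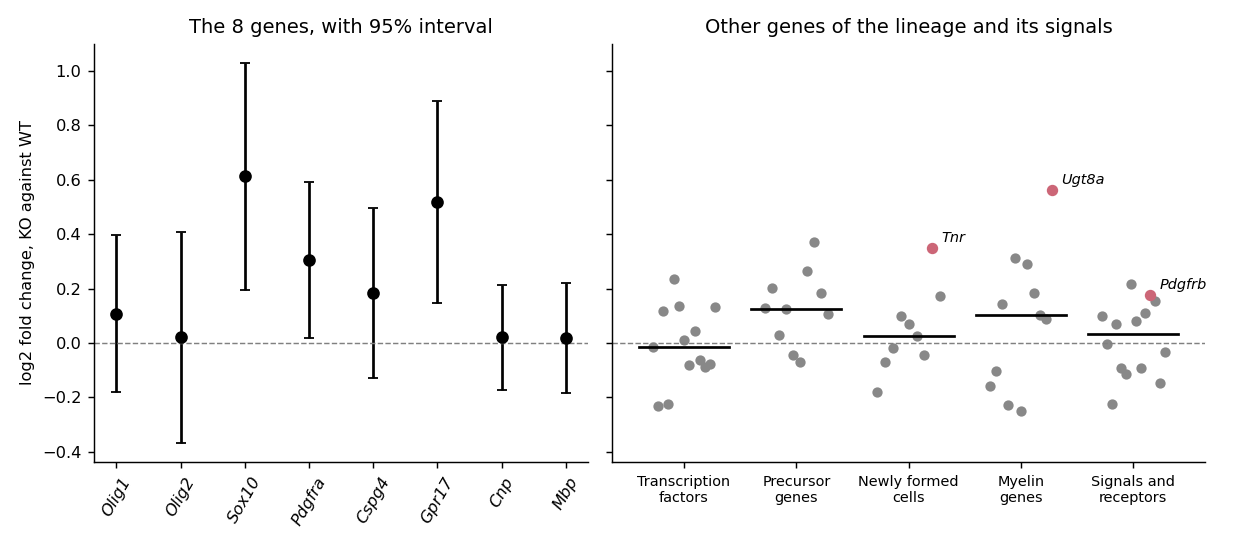
Log2 fold change, labelled KO against WT. Left, the 8 lineage genes with 95% intervals. Right, the 57 other tested genes by list, with a line at each list's median and colour for the 3 genes in which every library labelled KO lay above every WT library. The intervals of Sox10, Gpr17 and Pdgfra lie above 0 before adjustment, and list medians lie between -0.01 and 0.13.

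Markers of other cells that hold these genes were read beside them. Of 7 Schwann cell and neural crest genes, which share Sox10, only Erbb3 and Pmp22 were tested. Foxd3 and Cdh19, which help to define those cells, stayed at or below 0.499 CPM in all libraries. The summed level of the list was 10.5 to 14.9 CPM in WT and 10.9 to 13.1 CPM in the libraries labelled KO. Most of that sum was Pmp22, at 9.54 to 13.6 CPM in WT and 9.75 to 11.6 CPM in the libraries labelled KO. Erbb3, the neuregulin receptor of Schwann cells that oligodendrocyte precursors also make, was at 0.428, 0.545, 0.313 and 0.484 CPM in WT1 to WT4 and at 1.02, 0.862, 0.82 and 0.635 CPM in the libraries labelled KO1 to KO4. Every library labelled KO lay above every WT library, on 12 to 17 reads in WT and 20 to 50 in the others. The log2 fold change was 0.93 (SE 0.265, unadjusted p = 0.0044, adjusted p = 0.81, edgeR), and that of Pmp22 was -0.02 (0.11 without WT1).

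For Pdgfra, the summed level of 12 meningeal fibroblast genes was 19.3 to 25.6 CPM in WT and 19.8 to 35.0 CPM in the libraries labelled KO, with KO3 highest. Across libraries r between Pdgfra and the mean of this list was 0.393 (exact permutation p = 0.381, adjusted p = 0.509 over 4 relations; Spearman's rho 0.357, exact permutation p = 0.389). Without KO3 and WT1, the libraries farthest from the median of the list, r was 0.883 (exact permutation p = 0.0375), while within WT it was -0.677 and within the libraries labelled KO 0.47. For Cspg4, the summed level of 10 pericyte genes was 141 to 165 CPM in WT and 148 to 166 CPM in the libraries labelled KO, and r with the mean of that list was 0.114 (exact permutation p = 0.803; Spearman's rho 0.0476, exact permutation p = 0.935; r = 0.226 without WT2 and WT4). Of 8 radial glia genes 7 were lower in the libraries labelled KO, 4 of them at an unadjusted p under 0.05 (beside 2.52% of all tested genes) and 0 after adjustment (edgeR), with summed levels of 1880 to 2420 CPM in WT and 1870 to 2040 CPM in the libraries labelled KO. Of 5 tested genes of the red blood cell list, 2 were higher and 3 lower in the libraries labelled KO. The embryonic globin genes Hbb-y and Hba-x had log2 fold changes of -1.72 and -1.23 (edgeR unadjusted p = 0.00271 and 0.00221, adjusted 0.81 and 0.74). For Hba-x the adjusted p was 0.0473 with DESeq2, 0.0351 in edgeR without KO4 and 0.315 with limma-voom. With Y-linked expression as a covariate, which leaves WT4 as the only WT library to compare, the 2 log2 fold changes were -0.789 and -0.869. Alas2 went the other way (0.215, edgeR unadjusted p = 0.113, and 0.108 without KO2). The summed level of the 8 genes was 33.2 to 58.1 CPM in WT and 23.2 to 36.7 CPM in the libraries labelled KO. The part of these cells in the levels of the lineage genes was not tested.

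Across 19 other ways of fitting the data, including leaving out each library, the log2 fold change of Sox10 stayed between 0.48 and 1.10, that of Gpr17 between 0.43 and 0.72 and that of Pdgfra between 0.24 and 0.43. Sox10 was lowest without WT4 and highest where WT4 was the only WT library, compared with the 4 libraries labelled KO that share its Y-linked expression. WT4 held the lowest Sox10 level of all libraries, 1.99 CPM. Olig1 (0.01 to 0.31) and Cspg4 (0.02 to 0.27) also stayed above 0. Olig2, Mbp and Cnp took both signs, Olig2 from -0.14 without KO1 to 0.33 in the set with Y-linked expression.

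**Figure D5:**
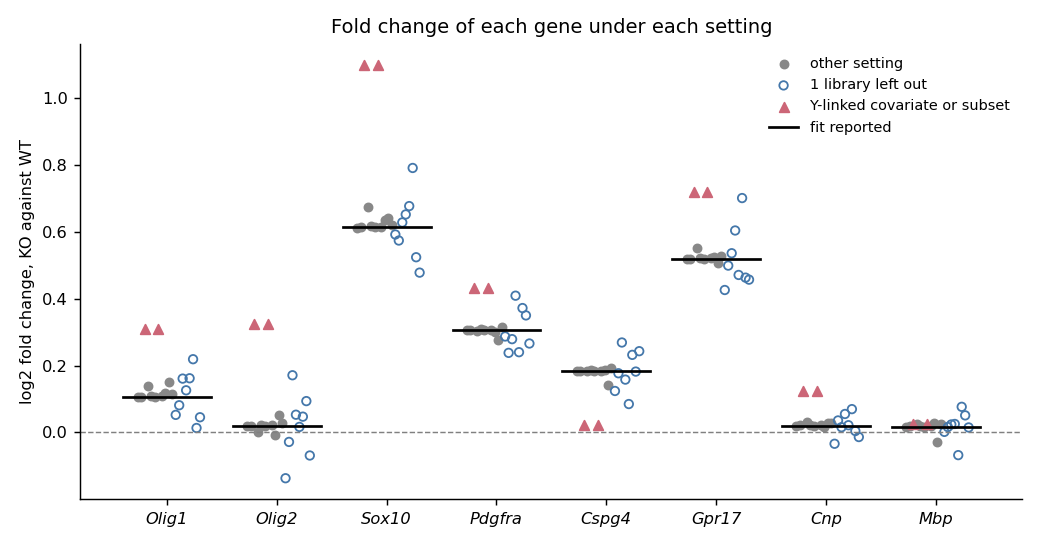
Log2 fold change (labelled KO against WT) of each gene under every setting: the fit reported (line), each library left out (open circles), Y-linked expression as a covariate or as the rule for the libraries used (triangles), and other normalizations, filters and tools (grey). Sox10, Gpr17, Pdgfra, Olig1 and Cspg4 keep values above 0 throughout, while Olig2, Cnp and Mbp lie on both sides of 0.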

How the data were processed

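Poly(A) RNA of 8 cortex libraries was analysed, grouped by the genotype in the labels. The authors aligned single-end reads, which carry no strand, to mm9 (HISAT), obtained gene counts (HTSeq-count) and deposited these raw counts by gene symbol, not normalized. Versions, the annotation and the counting mode are not given in the sources used here. The deposited DESeq2 table of the authors, with their fold changes and p-values, was not used.

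Genotypes were compared gene by gene in edgeR 4.0.16 (R 4.3.3, TMM, filterByExpr with a minimum count of 10 and total of 15, glmQLFit, glmQLFTest), with Benjamini-Hochberg adjustment over 14696 genes and a threshold of 0.05. Log2 values had a prior count of 2. Single values were tested with exact permutation tests over 70 assignments, and correlations over 40320 pairings. On counts simulated at the depths of these libraries (14723 genes tested) edgeR recovered 198 of 200 genes changed 2-fold, with 6 false calls. The simulation gave all genes the same fixed spread and changed only genes above a minimum mean count. It held no outlying library and no division by Y-linked expression. It therefore does not measure how often smaller changes, or changes in the measured counts, would be found. In the measured counts Dnajc28, at 0.383-fold, did not pass (edgeR adjusted p = 0.533), so this recovery does not hold for every gene. Lengths and positions came from GENCODE vM1 (mm9). Depth was 28205703 to 48871480 counts, and intervals include counting error. DESeq2 1.42.0, limma 3.58.1 and other settings were alternatives.

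The 8 genes and the lists were chosen with earlier results of these data known. Named were the 8 genes and Erbb4. Each lineage list gave the 3 highest per length and the 2 with the lowest p, and each marker list the 3 with the highest CPM. From a list of 15 neighbours on chromosome 16, the 2 nearest and those past an unadjusted p of 0.05 were named. So were the 3 genes most alike to Olig1, Olig2 and Pdgfra. Outside this rule, and with their values seen, were named Opalin, Mobp, Aspa, Fa2h, Neu4, Pdgfa, Nkx2-1, Foxd3, Cdh19, Gart, Son, Donson, Cryzl1, Lims2, Dnajc7, Xist and Ddx3y. Some genes of these lists were left out and are not reported here.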

Additional observations from a re-analysis of the deposited data

Results flagged for a closer look

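In the WT libraries, the level of Gpr17 in WT2 (6.67 CPM) lay far from the other 3 (4.27 to 4.35 CPM). Its gap to the nearest library, divided by the range of the group on the log2 scale, was 0.959, above Dixon's 95% critical value for 4 samples. Such a flag is raised by chance in about 1 in 20 groups, and 16 groups were examined. Without WT2 the log2 fold change of Gpr17 was 0.70 (edgeR adjusted p = 0.525), against 0.52 with it.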

How the results depend on the processing

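The count of the 8 genes past the threshold was 0 in all 22 settings, and so was that of the other lineage genes. At an unadjusted p under 0.05 it was 2 without WT1, WT4, KO1, KO2 or KO3, where Pdgfra missed it, and 3 with any other library left out. Both fits on Y-linked expression also gave 2, but rest on WT4 as the only WT library, assumed to vary like the others, and say nothing of stability. The count over all genes, 4, was 25 with DESeq2 and 1 with the 10 most abundant genes left out, relative log expression, upper-quartile normalization, Y-linked expression as a covariate, only the libraries with Y-linked expression, or a threshold of 0.01. It ranged from 1 to 13 with single libraries left out, the highest without WT4. The median log2 fold change of the 8 genes, 0.145, was 0.316 with the Y-linked covariate and 0.317 in the libraries with Y-linked expression, and 0.0881 to 0.226 with single libraries left out. Fold changes turned below 0 for Mbp with the trend with length removed (-0.0287, chosen after seeing the data) and, with single libraries left out, for Olig2 (-0.137 to 0.171), Mbp (-0.0679 to 0.0766) and Cnp (-0.0339 to 0.0697). The correlation of Olig1 with Olig2 was 0.249 to 0.825 with single libraries left out, that of Cspg4 with the pericyte list -0.00583 to 0.257, and that of Olig2 with the ganglionic eminence list 0.863 to 0.958, with adjusted p = 0.0516 (exact permutation) without KO3. The cause was not tested. Sox10 was read 70 to 219 times a library, and its log2 fold change had an SE of 0.192.

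Deviations of same-numbered libraries of the genotypes correlated weakly, all above 0 (0.0837, 0.135, 0.0476 and 0.0236). Pairs with different numbers ranged from -0.187 to 0.154. WT1 and WT2, but not WT3 and WT4, correlated best with their own number. With the replicate block 1 gene of all tested passed, and the log2 fold change of Olig2 was -0.00888.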
